A study of Mus musculus with 4 samples.

Results

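Small pre-B and immature B cells are the stages of marrow B lymphopoiesis between the dividing large pre-B cell and the recirculating mature B cell. A small pre-B cell has left the cell cycle, expresses the recombinase genes Rag1 and Rag2 again and rearranges an immunoglobulin light chain. An immature B cell carries the finished receptor as surface IgM, switches the recombinase off, gains Ms4a1 (CD20), MHC class II and complement receptors, and then leaves the marrow. The cells were chosen by their UMIs (unique molecular identifiers, counted molecules) of a few genes. A cell had at least 1 UMI each of Cd79a, a signaling chain of the B cell receptor, and of Vpreb3, a surrogate light chain-like gene of immature stages. It had at most 1 UMI each of Ighd, of Vpreb1 and of Igll1, none of Mki67, Top2a and Cd3e, and at most 1 UMI of the neutrophil genes Mmp8, Mmp9 and Cxcr2 together. The rule took 862 of 39743 cells, 72 and 417 under vehicle and 224 and 149 under PM.

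All 4 mice were C57BL/KawRij animals inoculated through the vein at 6 weeks of age with luciferase-carrying 5TGM1 cells, a line of syngeneic mouse myeloma (the 5TMM model). After 3 weeks, 2 mice received vehicle and 2 received 10 mg/kg of purinostat mesylate (PM), an inhibitor of class I and IIb histone deacetylases, and marrow was taken 24 h later. Every mouse thus carried the tumor, and an animal without myeloma was not among the groups. Red cells were lysed, and 1 droplet library was made per mouse with 69828595 to 109447030 UMIs. A level is given below in CPM, the UMIs of a gene summed over the cells of a mouse for each 1000000 UMIs of those cells, with TMM scaling. Levels named raw CPM are without that scaling. A gene was called when edgeR's quasi-likelihood test gave an adjusted p below 0.05 and the log2 fold change exceeded 0.5 in size.

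The label held for most of the cells but not for all of them. Of the 862 cells, 94 (10.9%, 95% exact binomial interval 8.9 to 13.2%, counting error only) held 34 to 2342 UMIs of Jchain, the joining chain of secreted IgA and IgM, while each of the other 768 held at most 4. These Jchain-rich cells numbered 15 and 22 under vehicle and 37 and 20 under PM. Their median depth was 17602 UMIs, against 2310.5 in the other cells, and they carried 75.9% and 32.4% of the UMIs of all cells chosen by the rule under vehicle and 56.6% and 55.3% in the PM mice. Pax5, the factor that maintains B cell identity, had a UMI in 0 of the 94 cells, which allows a share of cells with a UMI of up to 3.19% by counting error alone, and in 88.2% of the other cells. Xbp1, the factor of antibody secretion, stood at 1479 to 2611 raw CPM in the Jchain-rich cells and at 118 to 176 in the others. Rag1, Rag2, Spib and Il7r had no UMI in the Jchain-rich cells of any mouse. Their leading heavy-chain constant gene was Igha in 60 cells, Ighg2b in 14, Ighg2c in 13 and Ighg1 in 7, and 39 different light-chain V genes led in 1 or more of them. The cells therefore go against the label, and they are called Jchain-rich cells here. They were separated at 10 Jchain UMIs after their values were seen, and the results below are for the 768 remaining cells, 57 and 395 under vehicle and 187 and 129 under PM, unless all 862 are named.

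**Figure D1:**
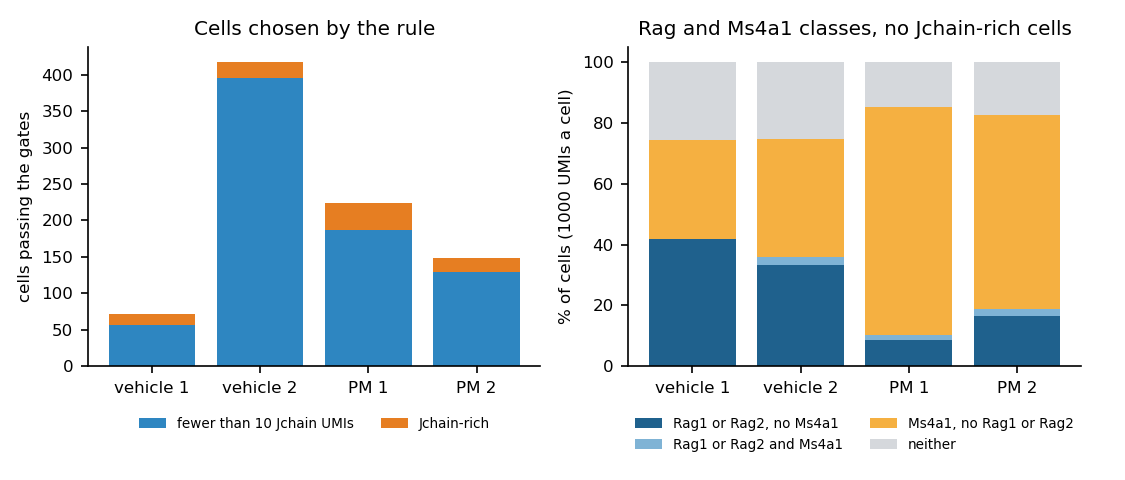
The left bars give the number of cells chosen by the rule in each mouse (vertical axis, cells), split into Jchain-rich cells and the others; the second vehicle mouse holds 417 of the 862 cells. The right bars give the percentage of the cells without Jchain-rich cells, each thinned to 1000 UMIs, that hold a UMI of Rag1 or Rag2, of Ms4a1, of both or of neither; the Ms4a1 class without Rag1 or Rag2 makes up 32.7% and 38.9% under vehicle and 74.7% and 63.8% in the PM mice.

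Without the Jchain-rich cells the markers matched the label. Vpreb3 stood at 1498 to 2544 raw CPM over the 4 mice. It stood at 258 to 554 in mature B cells (the cells with at least 2 Ighd UMIs, 1642 in all). In pro-B and large pre-B cells (those with at least 2 UMIs of Vpreb1 or of Igll1, 197 in all) it stood at 1206 to 1551. The remaining marrow cells held it at 5.14 to 26.6. Rag1 reached 174 to 619 raw CPM, overlapping the 109.9 to 352 of pro-B and large pre-B cells and above the 0 to 86.2 of mature B cells. Spib, an Ets factor of B cells, stood at 552 to 1042 raw CPM, against 58.99 to 116 in pro-B and large pre-B cells and 304 to 484 in mature B cells. Ms4a1 stood at 1106 to 3049.6 raw CPM, against 6.83 to 30.4 in pro-B and large pre-B cells and 1699 to 1919 in mature B cells. It was below the mature range in both vehicle mice and above it in both PM mice. Vpreb3, Cd79a and Ighd chose the cells, so these levels are a description. The heavy-chain constant gene with the most UMIs was Ighm in 755 of the 768 cells.

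Cells just inside and just outside the gates were described by their Ms4a1, with no test. Among the cells without Jchain-rich cells, 132 had exactly 1 Vpreb3 UMI and 636 had 2 or more, and 298 cells passed all other gates but had no Vpreb3 UMI. Ms4a1 had a UMI in 82.6% and 74.5% under vehicle and 79.3% and 75.7% under PM for the cells with no Vpreb3 UMI, and in 31.8% and 43.3% under vehicle and 76.3% and 71.8% under PM for those with at least 2. By Ighd, the shares were 37.5% and 44.1% under vehicle and 85.6% and 68.8% under PM for the cells with no UMI and 55.6% and 54.2% under vehicle and 79.5% and 80.8% under PM for those with 1. Just outside the gate, the 158 cells with 2 Ighd UMIs gave 100% and 71.4% under vehicle and 90.5% and 93.8% under PM, where the first vehicle mouse had 7 cells. Relative to the cells without Jchain-rich cells, they numbered 12.3% and 14.2% under vehicle and 33.7% and 24.8% under PM. The cells with no Vpreb3 UMI numbered 40.4% and 13.9% under vehicle and 80.2% and 54.3% under PM on the same scale. The cells with exactly 1 Ighd UMI were 15.8% and 27.1% under vehicle and 44.4% and 40.3% under PM of the cells without Jchain-rich cells. No barcode of a chosen cell was shared between the chosen cells of different libraries, and 10 chosen cells had a barcode that also occurred in another library.

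The share of these cells in the marrow differed most between the vehicle mice. The 768 cells made up 0.615% and 5.05% of all kept cells under vehicle and 1.40% and 1.39% in the PM mice. The PM values lay between those of the vehicle mice, and an exact permutation test (two-sided, n = 2 mice a group) gave p = 1. Of the cells in the 3 B lineage gates, they were 30.6% and 51.8% under vehicle and 17.3% and 22.4% in the PM mice. Mature B cells, 1 of these gates, numbered 111 and 292 under vehicle and 833 and 406 under PM, and their part in this share was not tested. Here both PM mice lay below both vehicle mice, with an exact permutation p of 0.333, the smallest that 2 against 2 mice allow. With the Jchain-rich cells kept, the shares of all cells were 0.777%, 5.33%, 1.67% and 1.61% in the same order, and those of the B lineage gates 35.8%, 53.2%, 20.02% and 24.96%.

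Within these cells the shares of cells with a UMI of several stage genes did not overlap between the groups. Whether cells of a stage changed in number or these genes changed within cells was not tested. In summed levels, both PM mice lay above both vehicle mice for 23.7% of all tested genes and below them for 22.3%. Each cell was thinned to 1000 UMIs, which left out 13 of the 768 cells for lower depth. Rag1 had a UMI in 30.9% and 31.2% of the cells under vehicle and 9.34% and 15.7% under PM. Rag2 had one in 14.5% and 12.3% of the cells under vehicle and 3.85% and 3.94% under PM. Both PM mice thus lay below both vehicle mice for each recombinase gene. Ms4a1 moved the other way, with 32.7% and 41.4% of the cells under vehicle and 76.4% and 66.1% under PM, and the groups did not overlap either. In neutrophils, which should lack these genes, the thinned share was 0% for Rag1 and Rag2 in every mouse and 0.0218 to 0.161% for Ms4a1. Over all 862 cells the thinned shares were 24.3% and 29.5% of the cells under vehicle and 7.76% and 13.6% under PM for Rag1 and 25.7% and 39.5% of the cells under vehicle and 65.3% and 58.5% under PM for Ms4a1. Unthinned, the shares without Jchain-rich cells were 40.4% and 43.04% of the cells under vehicle and 12.8% and 22.5% under PM for Rag1 and 40.4% and 46.8% of the cells under vehicle and 82.9% and 73.6% under PM for Ms4a1, with median depths of 1961 and 2300 UMIs under vehicle and 2221 and 2563 UMIs in the PM mice.

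Sorted by both kinds of gene, thinned cells with Rag1 or Rag2 and no Ms4a1, the pattern of a small pre-B cell, made up 41.8% and 33.2% of the cells under vehicle and 8.79% and 16.5% under PM. Cells with Ms4a1 and neither Rag gene, the pattern of an immature B cell, made up 32.7% and 38.9% of the cells under vehicle and 74.7% and 63.8% under PM. Cells with both were rare, at 0% and 2.56% of the cells under vehicle and 1.65% and 2.36% under PM, and there the groups overlapped. Ms4a1 was itself called higher after PM, so the classes with and without it need not hold the same stages in both groups. For the other stage genes, too, the PM mice lay on the same side of both vehicle mice. Il7r, the interleukin 7 receptor of early B cells, had a UMI in 40% and 27.1% of the cells under vehicle and 12.1% and 22.05% under PM. Cd93, a marker of immature B cells, had one in 30.9% and 33.8% of the cells under vehicle and 21.4% and 15.7% under PM, and Spib in 61.8% and 61.1% of the cells under vehicle and 42.3% and 39.4% under PM. H2-Aa, an MHC class II chain, had one in 21.8% and 17.1% of the cells under vehicle and 42.3% and 36.2% under PM. In thinned neutrophils, H2-Aa had a UMI in 0.423% and 0.495% under vehicle and 1.40% and 0.589% under PM and Cd93 in 1.02% and 1.22% under vehicle and 2.35% and 2.31% under PM, while Il7r was at most 0.258% and Spib at most 0.153% in any mouse. For Il7r, Cd93, Spib and H2-Aa, as for Rag1, Rag2 and Ms4a1, the groups did not overlap. Such separation was common in the summed levels of all tested genes, with PM above for 23.7% and below for 22.3%. For each of these stage genes the exact permutation test gave p = 0.333, the smallest value this design can reach. The stage genes could therefore not be told apart by p. Ighm had a UMI in 100% and 99.7% of the cells under vehicle and 96.2% and 96.9% under PM, and Igkc, the kappa constant gene, in 89.1% and 85.4% of the cells under vehicle and 95.6% and 92.1% under PM. Of thinned neutrophils, 7.66% and 6.24% under vehicle and 15.7% and 7.20% under PM held an Igkc UMI.

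The leading light chain differed between the groups too. Among the cells with a light-chain constant UMI, a lambda gene led over kappa in 26.3% and 28.5% of the cells of the vehicle mice and in 8.56% and 12.6% of those of the PM mice. The level of Igkc was 5650.4 and 5446 raw CPM under vehicle against 9809.8 and 8047 under PM, and that of the lambda constant genes together 3055 and 3443 raw CPM under vehicle against 2361 and 2226 under PM. Neutrophils, which make neither chain, held Igkc at 273 and 339 raw CPM under vehicle against 243 and 195 under PM and the lambda genes at 13.3 and 20.2 raw CPM under vehicle against 10.9 and 15.6 under PM. The part of this background in the lead of a chain was not tested. Iglc3, a lambda constant gene, fell from 939 and 1159 CPM to 609 and 432 CPM (log2 fold change -1.03 ± 0.20, adjusted p = 0.000991), and Igkc rose from 5719.9 and 5646 CPM to 10686 and 8557 CPM (log2 fold change 0.76 ± 0.17, adjusted p = 0.00454). With all 862 cells, neither was called (adjusted p = 0.892 and 0.995), and the log2 fold change of Iglc3 had the opposite sign (1.07).

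Across all genes, 368 of 6286 tested genes differed between PM and vehicle in the cells without Jchain-rich cells, with 221 called higher (3.52%) and 147 called lower (2.34%). Both PM mice lay above both vehicle mice for 23.7% of the tested genes and below them for 22.3%, and the median log2 fold change of all genes was 0.00. The counts given for each list below are to be read against these shares of all tested genes. With all 862 cells, 0 of 7457 genes were called higher (0%) and 0 lower (0%), while 305 and 212 had an unadjusted p under 0.05 and DESeq2 called 1 in each direction. Of the 368 genes called without the Jchain-rich cells, 363 were also tested with all cells, and 359 of these had the same sign there. No member of any list used below was called with all 862 cells. Their medians of log2 fold changes there were -0.71 for V(D)J recombination, 1.07 for MHC class II, 0.86 for the interferon list, 0.31 for maturation surface genes, -0.15 for lineage transcription factors, -0.39 for immediate early genes, -0.12 for the BCL2 family, 0.36 for MHC class I, 0.01 for p53 targets, 0.02 for histone deacetylases, -0.16 for plasma cell markers and 1.18 for neutrophil markers. DESeq2 called 29 genes higher and 41 lower without the Jchain-rich cells, all 70 of them among the 368. With all 862 cells, leaving out the first vehicle mouse gave 356 higher and 210 lower, and leaving out the second vehicle mouse gave 146 and 187. Without the Jchain-rich cells, leaving out the second vehicle mouse, which holds 395 of the 452 vehicle cells, left 54 called higher and 64 called lower, and leaving out the first PM mouse left 99 and 68. Of the 104 called genes named by rule, 48 stayed called without the second vehicle mouse and 60 without the first PM mouse. The 25 that stayed called in each of the 4 fits with 1 mouse left out, with a replicate block and with DESeq2 were Atp1b1, Bach2, Bcl11a, Bcl2l1, Bst2, Btg2, Cd69, Cd74, Ctsh, Fcer2a, H2-Aa, H2-Ab1, H2-Eb1, Ifi27l2a, Irf4, Ly6a, Ly6c2, Lyz2, Ms4a1, Pgm2l1, Rag1, Sox4, Trim30a, Uchl1 and Xrcc6, and the other 79 lost the call or had no value in 1 or more of these fits. Of these 25, Lyz2 lost its call when cells rich in neutrophil markers were left out, as given below. In the second PM mouse, 1 cell held 136 of its 167 UMIs. The counts are sums over cells of several stages, so that fewer cells of a stage and less RNA per cell cannot be told apart in them.

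Rag1 and Rag2 were lower after PM, as were Xrcc6, Lig4 and Hmgb1. Of 16 genes of V(D)J recombination, 12 were tested, and 5 were called lower and 1 higher (all tested genes: 2.34% and 3.52%). Their median log2 fold change was -0.62. Rag1 (chr2:101638282-101649501, minus strand, GRCm38) and Rag2 (chr2:101624718-101632529, plus strand), are neighbors and encode the recombinase subunits. Rag1 had 422 and 641 CPM under vehicle against 189 and 235 CPM under PM. Rag2 had 189.5 and 137 CPM under vehicle against 45.5 and 65.5 CPM under PM. Rag1 fell by 1.41 ± 0.21 on the log2 scale (adjusted p = 6.77e-05) and Rag2 by 1.42 ± 0.28 (adjusted p = 0.00122), and neither overlapped between the groups. Xrcc6, the Ku70 subunit that binds broken DNA ends, had 233 and 223 CPM under vehicle against 63.2 and 59.5 CPM under PM (log2 fold change -1.87 ± 0.24, adjusted p = 6.68e-06). Lig4, the ligase that joins them, had 215 and 138 CPM under vehicle against 17.7 and 65.5 CPM under PM (log2 fold change -1.94 ± 0.35, adjusted p = 0.000753), with the PM mice well apart from each other but both below the vehicle mice. Hmgb1, a cofactor of the recombinase, had 973 and 924 CPM under vehicle against 536 and 628 CPM under PM (log2 fold change -0.70 ± 0.19, adjusted p = 0.0182). Dntt, the polymerase that adds nucleotides at heavy-chain joins and belongs to an earlier stage, was the gene called higher. It had 0 and 1 UMI under vehicle and 11 and 18 UMIs in the PM mice, held by 3 and 2 cells, 1 of which held 16 UMIs. Xrcc4 and Dclre1c were not called (log2 fold change 0.67 and -0.54).

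**Figure D2:**
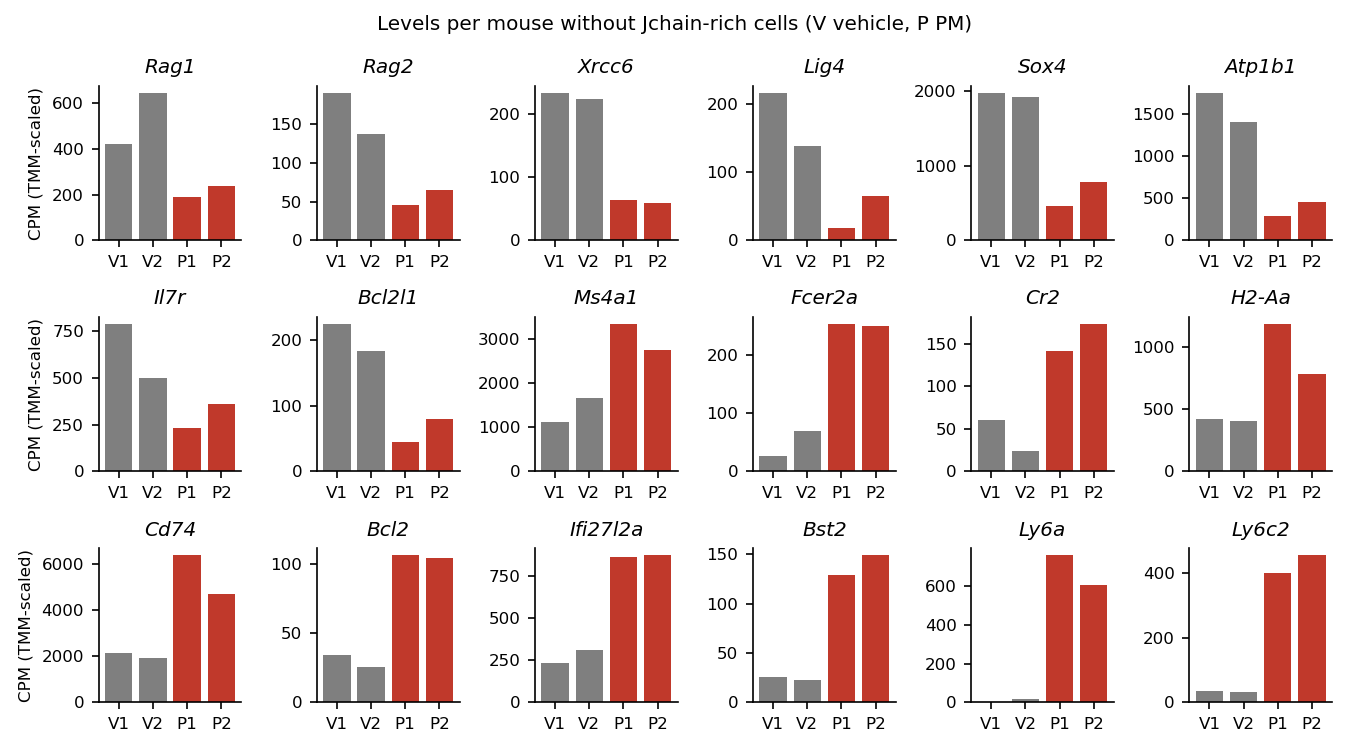
Each bar is the level of a gene in 1 mouse (vertical axis, TMM-scaled CPM, from 0; V1 and V2 are the vehicle mice and P1 and P2 the PM mice), without Jchain-rich cells. In all 18 panels both PM bars lie on the same side of both vehicle bars, lower for Rag1 to Bcl2l1 and higher for Ms4a1 to Ly6c2.

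Several factors of early B cells were lower as well. Of 31 lineage transcription factors, 30 were tested, 6 were called lower and 4 higher, with a median log2 fold change of -0.19. Sox4, a survival factor of early B cells, had 1964 and 1921 CPM under vehicle against 459.8 and 783 CPM under PM (log2 fold change -1.65 ± 0.21, adjusted p = 5.26e-06). Myb, a progenitor factor, had 1068 and 887 CPM under vehicle against 498 and 649 CPM under PM (log2 fold change -0.75 ± 0.19, adjusted p = 0.0152). Bach2, which restrains plasma cell differentiation, had 2386 and 1848 CPM under vehicle against 902 and 1108 CPM under PM, and it fell by 1.06 ± 0.19 on the log2 scale (adjusted p = 0.000399). Irf4, which is induced at light-chain recombination, fell by 1.07 ± 0.22 (adjusted p = 0.00169), Tcf3 (E2A) by 0.80 ± 0.20 (adjusted p = 0.013) and the coactivator Pou2af1 by 0.77 ± 0.19 (adjusted p = 0.0111). The factors that rose were Bcl6, the germinal center repressor, from 8.61 and 24.5 CPM to 101.1 and 86.3 CPM (log2 fold change 2.06 ± 0.36, adjusted p = 0.000399), and Bcl11a, Klf3 and Irf8, with log2 fold changes of 1.23, 1.29 and 0.70. Pax5 and Ebf1, the factors that define the lineage, were not called. Pax5 had 1396 and 1293 CPM under vehicle against 1354 and 1224 CPM under PM, with overlapping groups, and Ebf1 had 4066 and 4373 CPM under vehicle against 3236 and 3472 CPM under PM.

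Surface genes of maturation moved in both directions. Of 18 tested members, 6 were called higher and 3 lower, with a median log2 fold change of 0.32. Ms4a1 (chr19:11249675-11266241, minus strand) had 1119.8 and 1666 CPM under vehicle against 3322 and 2739 CPM under PM (log2 fold change 1.09 ± 0.19, adjusted p = 0.000399). Fcer2a (CD23), a receptor of follicular B cells, had 25.8 and 70.3 CPM under vehicle against 253 and 250.1 CPM under PM (log2 fold change 1.99 ± 0.25, adjusted p = 5.26e-06). Both genes were higher in each PM mouse than in either vehicle mouse. Ltb, Ly6d and Cd55 also rose, by 0.96, 0.80 and 0.76 on the log2 scale. Il7r had 784 and 496 CPM under vehicle against 229.9 and 357 CPM under PM (log2 fold change -1.05 ± 0.23, adjusted p = 0.00346), Cd93 388 and 476 CPM under vehicle against 300.6 and 247 CPM under PM (log2 fold change -0.70 ± 0.20, adjusted p = 0.0271), and Bst1 fell by 0.91 ± 0.25 on the log2 scale (adjusted p = 0.0215). In Ms4a1-negative cells alone, the log2 fold change was 0.13 for Il7r and 0.13 for Bst1. Of 10 tested coreceptors and inhibitory receptors, 4 were called higher and 1 lower (median 0.50). Cr2, the complement receptor CD21, had 60.3 and 23.4 CPM under vehicle against 141 and 173 CPM under PM (log2 fold change 2.45 ± 0.32, adjusted p = 9.23e-06). The inhibitory receptors Cd22 and Fcgr2b rose by 1.15 and 1.00 and Cd81 by 0.84 on the log2 scale, while Fcrla, an intracellular immunoglobulin-binding protein, fell by 0.87 (adjusted p = 0.00254). Of 21 genes of the receptor and its proximal signaling (median log2 fold change -0.02), 1 was called higher and 2 lower (all tested genes: 3.52% and 2.34%). These were Igkc, Iglc3 and Pik3ap1, an adaptor to PI3 kinase (log2 fold change -0.67 ± 0.19, adjusted p = 0.03). Cd79a, which chose the cells, had 2731 and 2809 CPM under vehicle against 2832 and 2939 CPM under PM, and Vpreb3, which also chose them and was the only tested gene of the surrogate light chain list, had 2481 and 2637 CPM under vehicle against 1683 and 1593 CPM under PM.

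Most MHC class II genes were higher after PM. All 10 MHC class II genes of the list were tested, 7 were called higher and 0 lower, and their median log2 fold change was 1.21. Both PM mice lay above both vehicle mice for 9 of the 10, against 23.7% of all tested genes. Cd74, the invariant chain, had 2145 and 1912 CPM under vehicle against 6366 and 4698 CPM under PM (log2 fold change 1.46 ± 0.18, adjusted p = 5.51e-06). H2-Aa (chr17:34282744-34287823, minus strand) had 422 and 406 CPM under vehicle against 1179.8 and 783 CPM under PM (log2 fold change 1.26 ± 0.21, adjusted p = 0.000191), H2-Ab1 370.4 and 243 CPM under vehicle against 947 and 709 CPM under PM (log2 fold change 1.56 ± 0.22, adjusted p = 2.73e-05) and H2-Eb1 129 and 155 CPM under vehicle against 541 and 387 CPM under PM (log2 fold change 1.64 ± 0.21, adjusted p = 9.11e-06). The peptide exchange genes H2-Oa, H2-DMa and H2-DMb2 rose by 1.63, 1.11 and 1.17 on the log2 scale. Ciita, the class II transactivator, had 25.8 and 30.1 CPM under vehicle against 75.8 and 50.6 CPM under PM and was not called (adjusted p = 0.0855). Of 18 genes of MHC class I and peptide loading, 7 were called higher and 0 lower, with a median of 0.56. H2-K1 had 2136 and 1531 CPM under vehicle against 3325 and 3233 CPM under PM (log2 fold change 0.86 ± 0.18, adjusted p = 0.00263), and Tap1, a peptide transporter chain, 181 and 97.1 CPM under vehicle against 298 and 173 CPM under PM (log2 fold change 1.07 ± 0.27, adjusted p = 0.0146). H2-D1, H2-Q4, H2-Q6, H2-Q7 and H2-T22 rose by 0.59 to 0.99 on the log2 scale, and since several have near-identical copies their counts are uncertain. Without the second vehicle mouse the log2 fold change of H2-T22 was -0.0670.

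Interferon-induced genes were called in 1 direction only, higher. Of 45 listed genes 43 were in the files and 24 were tested, and 13 of these were called higher and 0 lower, with a median log2 fold change of 1.09. For 22 of the 24, both PM mice lay above both vehicle mice, against 23.7% of all tested genes. Of all tested genes, 3.52% were called higher. The summed level of the list was 2306 and 2612 raw CPM under vehicle and 5295 and 4656 under PM. A gene can pass the filter on low counts through 1 group alone. Ifi213 had 0 and 9 UMIs under vehicle and 27 and 18 under PM, and Zbp1 1 and 14 under vehicle and 20 and 17 under PM. The tally of directions and the median of this list are therefore a description. Ifi27l2a had the highest level, 233 and 310.1 CPM under vehicle against 861 and 872 CPM under PM (log2 fold change 1.60 ± 0.20, adjusted p = 5.26e-06). Bst2 (tetherin), which holds budding virus at the membrane, had 25.8 and 22.3 CPM under vehicle against 129 and 149 CPM under PM (log2 fold change 2.59 ± 0.32, adjusted p = 5.26e-06). Slfn5 had 34.5 and 24.5 CPM under vehicle against 141 and 116 CPM under PM (log2 fold change 2.31 ± 0.32, adjusted p = 2.58e-05), Trim30a 181 and 171 CPM under vehicle against 452 and 429 CPM under PM (log2 fold change 1.35 ± 0.20, adjusted p = 5.29e-05) and Ifi213, a DNA sensor of the p200 family, 0 and 10.04 CPM under vehicle against 68.2 and 53.6 CPM under PM (log2 fold change 2.76 ± 0.50, adjusted p = 0.000496). Irf9, a subunit of the factor that binds interferon response elements, had 103 and 103 CPM under vehicle against 209.7 and 214 CPM under PM (log2 fold change 1.04 ± 0.22, adjusted p = 0.00258). In each of these genes both PM mice lay above both vehicle mice.

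Interferon response elements carry a repeat of the letters that interferon-activated factors bind. These letters were searched in promoters because the called members of this list all rose. The motif GAAANNGAAA, on either strand, was present in the 250 bases upstream of the start in 2.98% of 32851 RefSeq promoters (GRCm38.p6), in 3.25% of 5072 tested genes with a promoter, in 9.55% of 178 called higher and in 1.85% of 108 called lower. Of the 13 interferon genes called higher, 9 had a promoter in the table and 6 held the motif: Ifi203, Trim30a, Slfn8, Bst2, Slfn5 and Ifi213. Of these, 4 are shown 5′ to 3′ up to the start site, with the motif or its reverse complement in capitals, since they cover a single copy on each strand, a copy far from the start and an overlapping pair (Bst2 chr8:71537473-71537722, minus strand; Trim30a chr7:104465194-104465443, minus strand; Slfn5 chr11:82951852-82952101, plus strand; Ifi213 chr1:173599273-173599522, minus strand).
Bst2: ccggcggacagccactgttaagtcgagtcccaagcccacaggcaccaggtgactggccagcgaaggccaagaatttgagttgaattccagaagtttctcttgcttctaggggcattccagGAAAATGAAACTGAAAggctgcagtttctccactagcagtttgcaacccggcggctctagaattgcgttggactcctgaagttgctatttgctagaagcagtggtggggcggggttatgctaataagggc
Trim30a: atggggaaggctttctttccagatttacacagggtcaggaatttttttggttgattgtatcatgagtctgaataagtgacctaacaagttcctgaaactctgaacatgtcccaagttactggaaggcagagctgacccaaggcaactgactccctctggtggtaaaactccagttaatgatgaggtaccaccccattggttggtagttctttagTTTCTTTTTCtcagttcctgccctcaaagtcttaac
Slfn5: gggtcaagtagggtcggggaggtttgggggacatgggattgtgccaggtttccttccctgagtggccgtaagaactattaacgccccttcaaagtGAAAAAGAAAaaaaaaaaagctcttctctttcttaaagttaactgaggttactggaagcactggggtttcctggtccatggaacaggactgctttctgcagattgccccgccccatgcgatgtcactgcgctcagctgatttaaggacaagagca
Ifi213: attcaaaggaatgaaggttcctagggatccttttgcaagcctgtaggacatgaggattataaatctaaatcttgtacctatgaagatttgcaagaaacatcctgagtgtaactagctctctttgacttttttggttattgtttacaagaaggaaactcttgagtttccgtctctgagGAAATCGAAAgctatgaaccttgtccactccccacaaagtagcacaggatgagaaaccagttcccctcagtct
The motif starts 36 bases before the start site in Trim30a, 73 in Ifi213 and 155 in Slfn5, and in Bst2 a pair of overlapping copies starts at 130 and 124 bases. A match describes the letters and is not a measured binding site.

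**Figure D3:**
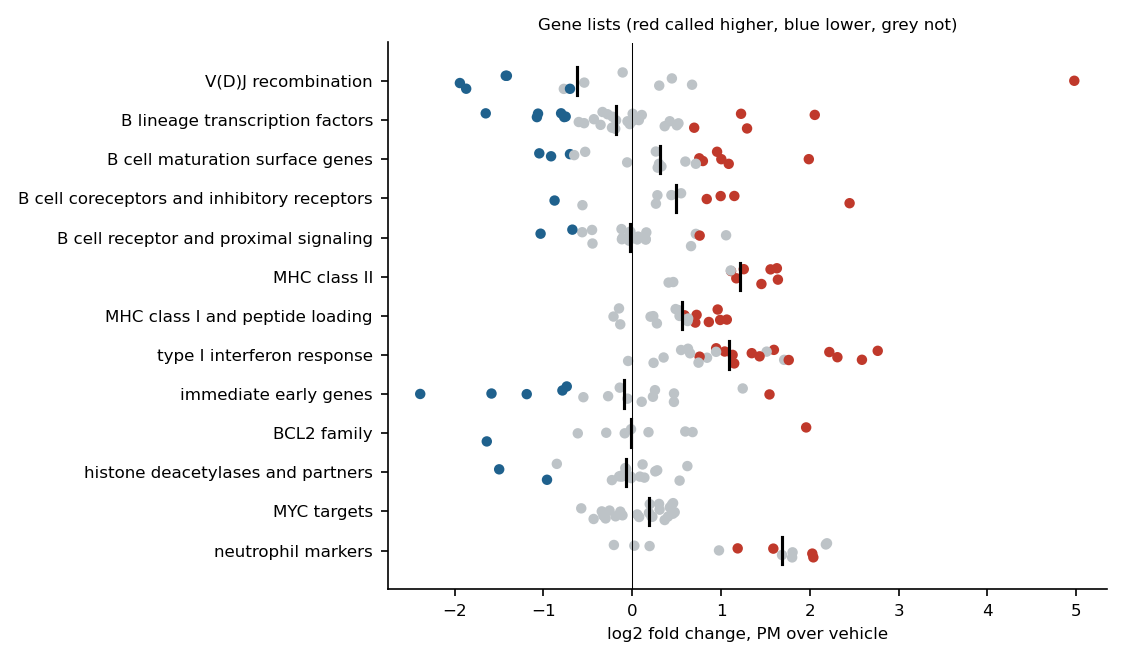
Each point is the log2 fold change (horizontal axis, PM over vehicle) of 1 tested gene of a list, without Jchain-rich cells, with points called higher in red, called lower in blue and others in grey and the median of the list as a black line. The MHC class II genes lie to the right of 0, the interferon genes have a median of 1.09, and the V(D)J point near 5 is Dntt, which rests on 29 UMIs of the PM mice.

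The largest rise was that of Ly6a (Sca-1; chr15:74994877-74998031, minus strand), a surface protein of the Ly6 family that interferon induces in lymphocytes. It had 0 and 14 UMIs under vehicle and 300 and 204 in the PM mice, or 0 and 15.6 CPM under vehicle against 758 and 607 CPM under PM (log2 fold change 5.62 ± 0.32, adjusted p = 3.94e-13). Of the unthinned cells, 0% and 1.77% held a UMI under vehicle and 59.9% and 50.4% in the PM mice, against 0.489 to 4.49% of neutrophils. Both vehicle mice were below or within the neutrophil range and both PM mice far above it. Most of the Ly6a UMIs came from the PM mice, through which a gene can pass the filter on low counts. The size of its rise is therefore a description. Ly6c2, another member of the family on chromosome 15 that can share reads with Ly6c1, had 34.5 and 31.2 CPM under vehicle against 402 and 455.5 CPM under PM (log2 fold change 3.74 ± 0.25, adjusted p = 2e-11). With all 862 cells neither was called (log2 fold change 0.76, adjusted p = 0.988 for Ly6a and 0.29, adjusted p = 0.995 for Ly6c2), and the Jchain-rich cells alone held Ly6a at 1816 and 1078 raw CPM under vehicle against 1523 and 3440.1 under PM.

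The other leading rises started from low levels. Mpeg1 (perforin-2), a pore former against engulfed bacteria, had 0 and 8.92 CPM under vehicle against 111 and 113 CPM under PM (log2 fold change 3.79 ± 0.43, adjusted p = 1.95e-06). Ms4a4c and Ms4a6b, relatives of Ms4a1, rose by 3.43 ± 0.47 and 3.04 ± 0.61 on the log2 scale. Icosl, the ligand of the T cell receptor ICOS, had 0 and 5.58 CPM under vehicle against 32.8 and 74.4 CPM under PM (log2 fold change 3.34 ± 0.61, adjusted p = 0.000597). The lymphocyte GTPases Gimap7 and Gimap4 rose by 3.38 and 2.56, and Apoe (apolipoprotein E), Trim7 and the predicted genes AF067061 and Gm15987 by 2.79, 2.46, 3.26 and 3.18. Gimap7 had only 3 and 2 UMIs under vehicle and 31 and 10 under PM. Its log2 difference in PM effect from mature B cells was 0.56 without the second vehicle mouse. In the vehicle mice these genes stood at 2.79 to 16.4 CPM on average. Most of their UMIs came from the PM mice, through which a gene can pass the filter on low counts. Mpeg1 had 0 and 8 UMIs under vehicle and 44 and 38 under PM, and AF067061 had all 5 of its vehicle UMIs in 1 cell. The sizes of these rises are therefore a description.

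Among the leading falls, Atp1b1, the beta subunit of the sodium pump, was the most abundant, with 1749 and 1406 CPM under vehicle against 285 and 453 CPM under PM (log2 fold change -2.08 ± 0.21, adjusted p = 1.96e-07). Rbm24, an RNA-binding protein, had 103 and 51.3 CPM under vehicle against 10.1 and 0 CPM under PM (log2 fold change -3.41 ± 0.63, adjusted p = 0.00073), and Thbd (thrombomodulin) 43.1 and 64.7 CPM under vehicle against 10.1 and 2.98 CPM under PM (log2 fold change -3.10 ± 0.55, adjusted p = 0.000399). Gfra1, a coreceptor of glial cell-derived growth factor, had 155 and 79.2 CPM under vehicle against 12.6 and 8.93 CPM under PM (log2 fold change -3.06 ± 0.47, adjusted p = 7.98e-05). Dusp5, a phosphatase that switches off nuclear ERK, had 224 and 196 CPM under vehicle against 17.7 and 62.5 CPM under PM (log2 fold change -2.39 ± 0.31, adjusted p = 9.11e-06). The deubiquitinases Uchl1 and Otub2 fell by 1.93 and 1.92 on the log2 scale, the receptor kinase Epha2 by 2.24, the collagen gene Col5a3 by 2.02 and the sugar phosphate enzyme gene Pgm2l1 by 1.91. Spns3, Btbd8, Rsph1 and Gm14302 fell by 2.22, 2.41, 2.21 and 2.33. Both PM mice lay below both vehicle mice in each of these genes, which the rule that named them required. A gene can pass the filter on low counts through the vehicle mice alone. Rbm24 had 12 and 46 UMIs under vehicle and 4 and 0 under PM, and Thbd 5 and 58 under vehicle and 4 and 1 under PM. The sizes of the falls of genes with few UMIs under PM are therefore a description.

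Of the survival genes, Bcl2l1 fell and Bcl2 rose. Of 9 tested BCL2 family genes, 1 was called higher and 1 lower, with a median log2 fold change of -0.01. Bcl2l1 (BCL-XL), the antiapoptotic gene of small pre-B cells, had 224 and 184 CPM under vehicle against 45.5 and 80.4 CPM under PM (log2 fold change -1.64 ± 0.26, adjusted p = 0.000138). Bcl2, the antiapoptotic gene of mature B cells, had 34.5 and 25.7 CPM under vehicle against 106 and 104 CPM under PM (log2 fold change 1.96 ± 0.33, adjusted p = 0.000269). Mcl1 had 870.0 and 981 CPM under vehicle against 1149 and 974 CPM under PM and the proapoptotic Bcl2l11 (BIM) 77.5 and 62.5 CPM under vehicle against 40.4 and 44.7 CPM under PM, and neither was called. Of 16 tested immediate early genes, 5 were called lower and 1 higher (median -0.10), and Dusp5 is among them. Jund had 1714 and 1657 CPM under vehicle against 667 and 1292 CPM under PM (log2 fold change -0.79 ± 0.22, adjusted p = 0.0288), Btg2 1404 and 1234 CPM under vehicle against 533 and 616 CPM under PM (log2 fold change -1.19 ± 0.19, adjusted p = 0.00011) and Cd69, an activation antigen that holds lymphocytes in tissue, 422 and 293 CPM under vehicle against 83.4 and 139.9 CPM under PM (log2 fold change -1.58 ± 0.24, adjusted p = 7.98e-05). Jun fell by 0.74 on the log2 scale (adjusted p = 0.0173), and Cd83, a costimulatory glycoprotein, rose by 1.55 (adjusted p = 0.013).

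Cxcr4, the receptor that holds precursors in the marrow, had 922 and 721 CPM under vehicle against 308 and 509 CPM under PM (log2 fold change -0.98 ± 0.22, adjusted p = 0.00393), and of 10 tested receptors of marrow retention and exit (median log2 fold change 0.34) the integrin chains Itga4 and Itgal rose by 0.75 and 1.68 on the log2 scale (adjusted p = 0.0215 and 0.000753). S1pr1, the exit receptor, had 129 and 141 CPM under vehicle against 141 and 185 CPM under PM and was not called. Of 19 tested histone deacetylases and partners (median log2 fold change -0.07), 0 were called higher and 2 lower (all tested genes: 3.52% and 2.34%). These were Hdac5, a class IIa enzyme, with 103 and 76.97 CPM under vehicle against 27.8 and 29.8 CPM under PM (log2 fold change -1.50 ± 0.36, adjusted p = 0.00807), and Gse1, a partner of deacetylase complexes (log2 fold change -0.96 ± 0.25, adjusted p = 0.0166, but 0.13 in Ms4a1-negative cells alone). Hdac1, Hdac2 and Hdac3, the class I enzymes, had log2 fold changes of 0.28, -0.12 and 0.26 and were not called. Of 8 tested polycomb genes (median -0.04), Ezh2, the methyltransferase, was lower with 249.8 and 262 CPM under vehicle against 109 and 149 CPM under PM (log2 fold change -1.02 ± 0.22, adjusted p = 0.00298) and Cbx7 was higher (log2 fold change 0.98 ± 0.24, adjusted p = 0.0105). Of 24 tested MYC targets 0 were called higher and 0 lower by edgeR, with a median of 0.19, among them Npm1, Ncl and Eif5a (-0.13, -0.11 and -0.30). Of 17 tested cell cycle genes (median -0.15) only Ccnd2, the cyclin of resting B cells entering the cycle, was called, and it was higher (log2 fold change 1.19 ± 0.23, adjusted p = 0.000891). Of 19 tested genes of the unfolded protein response (median 0.09) Calr rose by 0.82 and Herpud1 fell by 0.96 on the log2 scale, while in Ms4a1-positive cells alone the value of Herpud1 was 0.23. Of 8 tested handling stress genes (median 0.27) Hsph1 was called higher (1.59). Of 10 tested glucocorticoid-responsive genes (median 0.06) Txnip was called higher (0.73) and Cxcr4 lower, and of 9 tested p53 targets (median 0.38) Btg2 was called lower.

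Genes of other cell types also moved. Of 13 tested neutrophil markers, 4 were called higher and 0 lower, with a median log2 fold change of 1.69. The summed level of the list was 3259 and 3015 raw CPM under vehicle and 5123 and 13913 under PM. In the second PM mouse, 1 cell of 12969 UMIs held 3987 of the 4969 UMIs of this list. Without the richest cell of each library the level was 3134 and 2766 raw CPM under vehicle and 5058 and 2853 under PM, so that the second PM mouse lay between the vehicle mice and the first above them. S100a9, the most abundant marker, had 1034 and 1155 CPM under vehicle against 2135 and 4517 CPM under PM. When the 3 cells with at least 10% of their UMIs from this list were left out, 214 genes were called higher and 148 lower, and S100a9 stood at a log2 fold change of 0.77 (adjusted p = 0.0313) and Lyz2 at 0.97 (adjusted p = 0.0754), against 1.59 and 2.04 before. Elane and Mpo stayed called, at 2.04 and 1.18, and Mpo was also called higher in mature B cells (1.90, adjusted p = 0.000176). The part of these markers in the results was not tested further. Ly6a, Mpeg1 and Rag1 had log2 fold changes of 5.62, 3.77 and -1.40 in the same setting. Of 7 tested plasma cell markers (median 0.73), Mzb1 (0.73) and Ighg2c (3.32) were called higher, with 4 and 2 Ighg2c UMIs under vehicle and 25 and 22 in the PM mice. Of the erythroid markers 5 were tested and none was called, and Hba-a2, the most abundant, had 94.8 and 138 CPM under vehicle against 88.4 and 107 CPM under PM. T and NK cell markers were at most 23.2 raw CPM in sum, and none passed the filter. Cd3g and Klrb1c were at 0, and Cd3e was at 0 because the rule required it. The monocyte list had 1 tested gene, Ly6c2, which was called higher (3.74), and its sum was 76.6 and 95.8 raw CPM under vehicle and 449.9 and 526 under PM. The part of these markers in the other rises was not tested. The dendritic list had 1 tested gene, Cox6a2 (0.69), with Klk1, Xcr1 and Clec9a at 0.

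The sums were formed again from cells without and with a UMI of Ms4a1. This division depends on depth and on Ms4a1 itself, which was called higher after PM, so that its classes are not the same stages in both groups by construction. The cells without it numbered 34 and 210 under vehicle and 32 and 34 in the PM mice, and 33 of 1760 genes were called higher (1.88%) and 13 lower (0.739%). The cells with it numbered 23 and 185 and 155 and 95, and 30 of 5428 genes were called higher (0.553%) and 15 lower (0.276%). In the Ms4a1-negative cells, Rag1 stood at 601 and 1072 raw CPM under vehicle against 834 and 763 under PM, so the PM mice lay between the vehicle mice, and its log2 fold change was -0.09 (adjusted p = 0.934). Rag2 gave -0.25 (adjusted p = 0.775), Il7r 0.13 (adjusted p = 0.872) and Bcl2l1 -0.77 (adjusted p = 0.226). In the Ms4a1-positive cells, where Rag1 had 4 and 47 UMIs under vehicle and 8 and 12 in the PM mice, its log2 fold change was -1.63 (adjusted p = 0.0476).

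Other changes were present in both classes. Ly6a stood at 0 and 2.03 raw CPM under vehicle against 324 and 194 under PM in the Ms4a1-negative cells and at 0 and 29.8 raw CPM under vehicle against 781 and 694 under PM in the Ms4a1-positive cells, and it was called in both (adjusted p = 7.82e-05 and 8.76e-12). Ifi27l2a had log2 fold changes of 1.44 and 1.56 (adjusted p = 0.00411 and 0.000508), Trim30a 1.40 and 1.01 (adjusted p = 0.0198 and 0.0394) and Atp1b1 -1.25 and -1.70 (adjusted p = 0.00221 and 0.000508). Of the 7 called MHC class II genes, Cd74, H2-Aa and H2-Ab1 were also called in the Ms4a1-negative cells and none in the Ms4a1-positive cells. In the Ms4a1-negative cells Cd74 stood at 387 and 449 raw CPM under vehicle against 1407 and 1616 under PM (log2 fold change 1.89, adjusted p = 7.82e-05). In the Ms4a1-positive cells it stood at 5163 and 3418 raw CPM under vehicle against 6859 and 5332 under PM (0.62, adjusted p = 0.149), and the difference between the classes was not tested. H2-K1 was called in both classes, and Sox4 in the Ms4a1-negative cells (-0.70, adjusted p = 0.0304).

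The PM effect was then compared with that in the neighboring stages, in fits that kept each mouse as a block. Against mature B cells, 136 of 8176 genes had a more positive PM effect in the cells without Jchain-rich cells (1.66%) and 34 a more negative one (0.416%). In the mature B cells themselves 44 of 8397 genes were called higher (0.524%) and 15 lower (0.179%). Ly6a differed most among the genes named by the rule, by a log2 difference of 3.86 (adjusted p = 1.76e-12), and mature B cells held it at 377 and 186 raw CPM under vehicle against 719 and 709.6 under PM. Mpeg1 differed by 2.95 (adjusted p = 0.000829), Bst2 by 2.14 (adjusted p = 0.000829) and Bcl2 by 1.66 (adjusted p = 0.0013). The class II genes differed too, by 1.85 (adjusted p = 2.47e-10) for H2-Eb1 and 1.44 (adjusted p = 4.64e-14) for Cd74, and mature B cells held H2-Aa at 3731 and 3139.7 raw CPM under vehicle against 2712 and 2767 under PM, above the cells described here. Ms4a1 differed by 1.19 (adjusted p = 4.41e-08) and Fcer2a by 1.85 (adjusted p = 1.6e-06). The differences for Ifi27l2a (0.52, adjusted p = 0.244), Trim30a (0.62, adjusted p = 0.194) and Slfn5 (1.01, adjusted p = 0.183) did not pass the threshold, and in mature B cells alone these genes were called higher, by 1.08, 0.65 and 1.24 on the log2 scale. Ezh2 (-1.15, adjusted p = 0.0357), Bach2 (-0.59, adjusted p = 0.039) and Spns3 (-2.30, adjusted p = 0.015) had a more negative effect here than in mature B cells.

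**Figure D4:**
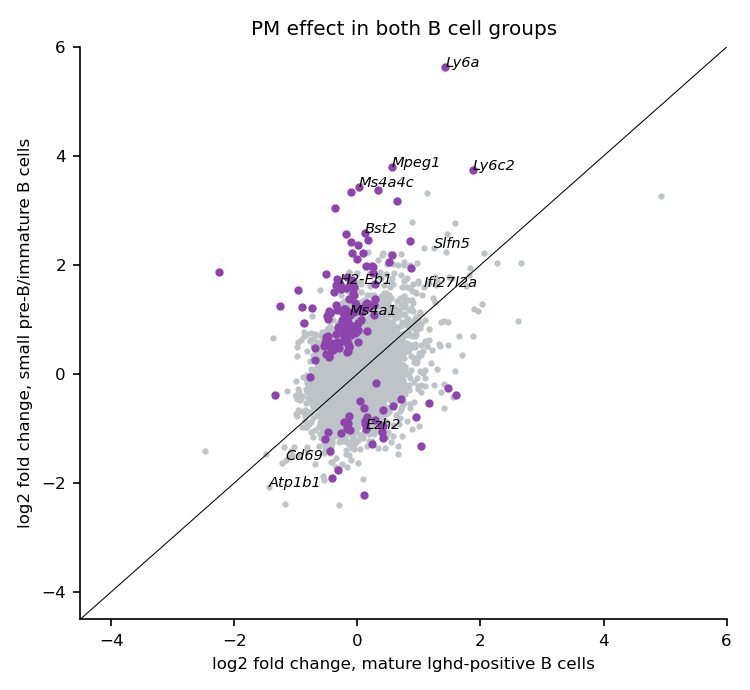
Each point is 1 of the plotted genes (mean level of 20 CPM or more), with its log2 fold change in mature B cells on the horizontal axis and in the cells without Jchain-rich cells on the vertical axis; the line marks equal effects and purple points passed the threshold of the difference. Ly6a, Mpeg1, Ms4a4c and Bst2 lie well above the line, while Ifi27l2a and Slfn5 are grey.

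Against pro-B and large pre-B cells, 47 of 7652 genes had a more positive PM effect in the cells without Jchain-rich cells (0.614%) and 26 a more negative one (0.34%). The pro-B and large pre-B cells, with 18 and 75 cells under vehicle and 62 and 42 in the PM mice, had 1 of 6804 genes called higher (0.0147%) and 1 lower (0.0147%), Ccnd2 and Dntt. Bcl2 differed by 2.64 (adjusted p = 0.00395) and Bcl2l1 by -2.33 (adjusted p = 0.0012), in opposite directions. Ly6c2 differed by 4.48 (adjusted p = 0.000268) and Mpeg1 by 5.53 (adjusted p = 0.000981), both more positive here, and Uchl1 by -3.34 (adjusted p = 1.65e-05) and Ezh2 by -1.24 (adjusted p = 0.0191), both more negative. The effects on Rag1 (-0.32, adjusted p = 0.823) and Rag2 (0.02, adjusted p = 1) did not differ past the threshold, and Rag2 stood at 272 and 162 raw CPM under vehicle against 64.7 and 61.8 under PM in the pro-B and large pre-B cells. With all 862 cells, 23 genes were more positive and 6 more negative against mature B cells, and 1 and 1 against pro-B and large pre-B cells.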

How the data were processed

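Marrow of 4 mice was profiled with 1 droplet library each. The deposited values are raw counts, the UMIs per gene and barcode, made by the authors with Cell Ranger 6.0.1, as the matrix headers say. The study's methods name GRCm38 as the reference and the submitters' processing notes name GRCm39. Of 32285 gene IDs 32235 are in GENCODE M21 (GRCm38), from which gene positions were taken. A cell was kept with 300 or more genes and no more than 20% of its UMIs from mitochondrial genes, and raw counts of the chosen cells were summed per mouse. Quasi-likelihood fits in edgeR 4.0.16 (R 4.3.3) used TMM scaling, its filterByExpr filter on low counts, a robust prior and Benjamini-Hochberg adjusted p-values, with DESeq2 1.42.0 as an alternative, and the steps were tested on simulated data. A figure legend of the study speaks of samples from 2 independent experiments but does not say which mice belonged to which. The same numbers in the labels of the 2 groups do not settle this, so a replicate block was an alternative only. With the block, 58 of the 104 named called genes stayed called. The p-values measure the spread between these samples, 1 library a mouse, which may be partly technical. Doublets were called in each library against simulated doublets and left in, which left 4 called doublets among the chosen cells. Shares were tested with exact permutations (scipy 1.17.1).

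The members and lists were chosen with earlier results of these data known. The genes named are the 5 markers, the gate genes, the 15 largest called rises and falls among genes averaging 20 CPM or more with all 4 vehicle-PM pairs in the same direction (antigen receptor, hemoglobin and mitochondrial genes left out), up to 8 called genes of each list and up to 6 genes of each difference between stages, the last kept to a mean of at least 20 CPM after the values were seen. The rule was applied to the fit without Jchain-rich cells. Further genes named beside a list, such as Pax5, Mcl1, S1pr1 and Hdac1, and the promoter motif were chosen after their values were seen. Some genes are not reported here.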

Additional observations from a re-analysis of the deposited data

Results flagged for a closer look

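Of the named genes whose PM effect differed between the cells without Jchain-rich cells and mature B cells, 6 were flagged, and others are given above. The difference was tested by an interaction term in a fit that blocks on the mouse. The log2 difference was 3.86 for Ly6a, 3.41 for Ms4a6b, 3.26 for Ms4a4c, 3.25 for Icosl, 3.09 for Gimap7 and 2.95 for Mpeg1. With 1 mouse left out at a time, 1 group holds a single mouse that is assumed to vary like the others, and these fits give no check of the spread in that group. The difference of Gimap7 was 0.56 without the second vehicle mouse (edgeR adjusted p = 0.872) and 2.33 without the first PM mouse (adjusted p = 0.288). Without the second vehicle mouse, those of Ly6a, Mpeg1, Icosl and Ms4a6b were 10.8, 9.47, 8.51 and 8.16, with these genes at 0 in the cells without Jchain-rich cells of the remaining vehicle mouse.

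Against pro-B and large pre-B cells, the same term gave a log2 difference of 6.92 for Dntt, 5.53 for Mpeg1, 5.29 for Ms4a4c, 4.79 for Ctsh, 4.48 for Ly6c2 and 4.38 for Bcl6. Those of Bcl6 and Ms4a4c did not pass in any fit with 1 mouse left out, with adjusted p of 0.0636 to 0.519 for Bcl6 and 0.0962 to 0.955 for Ms4a4c, and the value of Ms4a4c was 0.58 without the second vehicle mouse. Mpeg1 stood at 12.05 without the second vehicle mouse and Ctsh at 7.70 without the first PM mouse. That of Dntt rests on 1 UMI in the vehicle mice and on 29 UMIs in 5 cells of the PM mice, while in pro-B and large pre-B cells Dntt stood at 1025 and 984 raw CPM under vehicle against 236 and 243 under PM. With 2 mice a group, no sample could be tested as an outlier of its group.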

How the results depend on the processing

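With all 862 cells, 0 genes were called in either direction with RLE size factors, stricter cell filters, thinned sums and most other settings, but library totals alone called 7 higher and 5 lower, no filter on low counts 80 and 48, gates with Ighd, Vpreb1 and Igll1 at 0 called 3 and 3, DESeq2 1 and 1, and leaving out 1 mouse at a time 0 to 356 higher and 0 to 210 lower, the highest without the first vehicle mouse. Without Jchain-rich cells, a choice made after the values were seen, 221 and 147 were called, DESeq2 called 29 and 41, sums thinned to the smallest total 49 and 35, Ms4a1-negative cells alone 33 and 13, Ms4a1-positive cells alone 30 and 15, and leaving out 1 mouse 54 to 253 higher and 64 to 190 lower. The same-numbered mice did not deviate together (correlation -0.0148 over 3902 genes), and a replicate block called 78 higher and 56 lower, or 0 and 1 with all 862 cells. Against mature B cells, leaving out 1 mouse gave 52 to 124 more positive and 4 to 70 more negative effects, or 8 to 148 and 1 to 72 with all cells. Against pro-B and large pre-B cells the ranges were 12 to 123 and 3 to 129, or 4 to 182 and 1 to 211 with all cells. The share that all 862 cells make up of kept cells differed by -3.69 to 0.863 percentage points in PM minus vehicle when 1 mouse was left out, with the positive value without the second vehicle mouse. Of 104 named called genes, 35 of 72 with a value stayed called with DESeq2, 42 of 73 with thinned sums, 58 under the block, 48 without the second vehicle mouse and 60 without the first PM mouse. Signs turned for Bst1 (0.13), Gse1 (0.13) and Il7r (0.13) in Ms4a1-negative cells, Herpud1 (0.23) in Ms4a1-positive cells and H2-T22 (-0.0670 to 1.30 with 1 mouse left out, the lowest without the second vehicle mouse), and the cause was not tested. The 57 cells of the first vehicle mouse hold 117513 UMIs, which limits what its low counts can show.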
